A study of Homo sapiens with 5 samples.

Results

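MHC class I antigen presentation was followed through 9 genes, HLA-B, HLA-C, HLA-E, B2M, TAP1, TAP2, TAPBP, PSMB8 and PSMB9. They were chosen by name, but with earlier results of these data known. The deposited table held 37181 entries, each a gene or an assembled locus, and 7 of the 9 genes had an entry under their own symbol. HLA-C shared the entry named HLA-B, and TAPBP shared an entry named ZBTB22. RNA was sequenced from HCC827 cells, a human lung adenocarcinoma line that carries an activating deletion in exon 19 of EGFR, the receptor that gefitinib inhibits. The 3 HCC827/GR libraries came from a gefitinib-resistant subline raised by stepwise dosing over more than 6 months, and the 2 HCC827/GS libraries (replicates 2 and 3) came from the sensitive parental cells. The EGFR deletion is thus shared by both groups, the resistant cells represent a single derived line, and whether its replicates were separate cultures was not given, so p-values measure the spread between these libraries only.

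MHC class I molecules display short peptides from inside the cell to CD8+ T cells. The proteasome cuts proteins into peptides, the TAP transporter carries them into the endoplasmic reticulum, and the peptide-loading complex places them on a heavy chain paired with β2-microglobulin. Interferons raise the transcription of most of these genes, and lung carcinomas are known to lose parts of the pathway.

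Of the 7 members with an entry, 1 rose in HCC827/GR and none fell at an adjusted p below 0.05 (limma), where 5.26% of the 16189 tested entries were called higher and 5.71% lower. The called entry was that of HLA-B and HLA-C, the classical heavy chains. The log2 fold change was always HCC827/GR minus HCC827/GS on the log2(FPKM + 1) scale. It was above 0 for 7 of 7 members, with a median of 0.28 against 0.00 over all tested entries. The entry that held TAPBP was not counted, because it bears another symbol, and was at -0.05. The sign of TAP2 turned without HCC827/GR replicate 3 (-0.052) or HCC827/GS replicate 2 (-0.14). With a library-size covariate the signs of TAP1 and TAP2 turned and the median was 0.072. That covariate was the sum of log2(FPKM + 1) over the values of a library below their upper quartile. It is not a count of reads, and sequencing depth was not adjusted for. By the thresholds of the study, a fold of at least 2 or at most 0.5 with an unadjusted p below 0.05, 0 of 7 members were called, where 2.96% of entries were called higher and 3.97% lower. At an unadjusted p below 0.05 alone, 2 members (HLA-B and HLA-E) were higher and 0 lower, beside 13.4% and 13.8% of entries. In these 2 entries every HCC827/GR library lay above every HCC827/GS library, an order found in 22.8% of all tested entries (23.4% had the opposite order), and in the other 5 the groups overlapped. FPKM is a level scaled to the length of the transcript and to the mapped fragments of the library, and the added 1 makes the change of low genes look smaller.

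**Figure D1:**
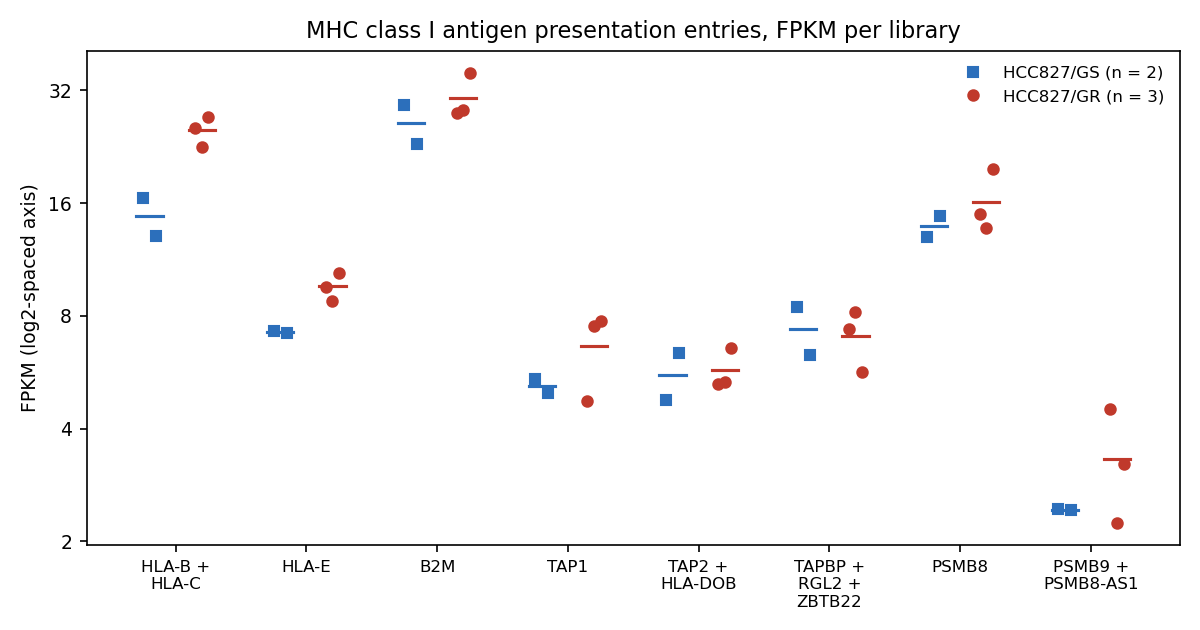
FPKM of the member entries in each library on a log2-spaced axis, with squares for HCC827/GS (n = 2), circles for HCC827/GR (n = 3) and lines for group means. The groups are apart for the HLA-B and HLA-C entry (13.1 to 16.5 against 22.5 to 27.1 FPKM) and for HLA-E, and overlap for the other entries.

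The epithelial markers KRT8, KRT18 and KRT19 were abundant in every library and made up most of the summed epithelial level. Not every marker was abundant. The NKX2-1 entry, which joined 3 genes, was at 0.963, 0.762 and 0.415 FPKM in HCC827/GR replicates 1, 2 and 3. Its log2 fold change was -1.64 (limma adjusted p = 0.0115). Epithelial markers differed in level between the groups. Summed FPKM of 7 epithelial markers was 466.9 to 602.3 in HCC827/GR and 1145.5 to 1269.5 in HCC827/GS, and 5 of 6 tested markers were called lower in HCC827/GR, with EPCAM at -3.04 (adjusted p = 0.00349). Leukocyte markers other than CD68 summed to 0.0524 to 0.112 FPKM (the CD68 entry joined other genes), and fibroblast markers to 0.411 to 1.14 FPKM. The endothelial markers CDH5 and VWF were near 0 in both groups, while the summed endothelial list was 3.38 to 4.44 FPKM in HCC827/GS and at most 0.0333 FPKM in HCC827/GR, almost all from a PECAM1 entry that matched no annotated gene. Protein-coding genes took 66.6% to 78.4% of the FPKM of a library. Absolute depth was unknown, and low values put the relative depth, with HCC827/GR replicate 1 set at 1, between 0.92 and 1.27. Correlation of log2 values over entries was 0.913 to 0.927 within groups and 0.851 to 0.873 between them, a description over genes that are not independent. The part of the epithelial difference in the results that follow was not tested. In bulk RNA, fewer expressing cells and less RNA per cell cannot be told apart.

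HLA-B and HLA-C encode classical heavy chains, which hold the peptide and present it to T cells. The annotated genes lie on the minus strand of chromosome 6 of GRCh38 (GENCODE 29), HLA-B at chr6:31269491-31357188 and HLA-C at chr6:31268749-31272130. These spans overlap by 2640 bases, and the shared entry held 11 transcripts, 4 of HLA-B, 5 of HLA-C and 2 others. Its level therefore cannot be divided between the genes. Promoters of both genes are shown because this entry carried the only call among the members. They are RefSeq windows of GRCh38.p14 from 250 bases before to 50 after the start, chr6:31357130-31357429 for HLA-B and chr6:31272043-31272342 for HLA-C, both minus strand, with capitals for matches to the κB motif.
HLA-B: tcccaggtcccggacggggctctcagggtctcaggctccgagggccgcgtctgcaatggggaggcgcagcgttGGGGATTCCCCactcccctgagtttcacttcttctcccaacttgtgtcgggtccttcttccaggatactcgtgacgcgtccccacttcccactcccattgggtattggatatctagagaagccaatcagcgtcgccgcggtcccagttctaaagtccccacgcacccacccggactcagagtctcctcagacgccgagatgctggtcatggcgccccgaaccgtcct
HLA-C: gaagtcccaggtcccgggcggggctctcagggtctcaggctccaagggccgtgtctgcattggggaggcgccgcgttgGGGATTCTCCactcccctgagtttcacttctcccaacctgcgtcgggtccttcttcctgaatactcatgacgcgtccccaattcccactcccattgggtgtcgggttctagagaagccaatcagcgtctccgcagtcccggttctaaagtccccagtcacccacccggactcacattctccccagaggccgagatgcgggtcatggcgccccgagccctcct
The promoters were identical at 88.5% of aligned positions (269 of 304), while HLA-B matched B2M at 48.0% and TAP1 at 45.8%.

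The HLA-B and HLA-C entry measured 25.4, 22.5 and 27.1 FPKM in HCC827/GR replicates 1, 2 and 3 and 16.5 and 13.1 FPKM in HCC827/GS replicates 2 and 3. All the resistant libraries were above both parental ones. Means were 25.0 ± 2.32 (SD, n = 3) and 14.8 ± 2.42 (SD, n = 2) FPKM. The log2 fold change was 0.73 (SE 0.14, 95% interval 0.35 to 1.10), a 1.66-fold higher level, with an adjusted p of 0.0443 (limma). It exceeded 92.5% of the tested log2 fold changes. An exact two-sided permutation test gave p = 0.1, the smallest that 3 against 2 libraries allow. The call was close to its threshold and was lost when any library was left out, with adjusted p of 0.132, 0.0843 and 0.112 without HCC827/GR replicates 1, 2 and 3, and 0.0826 and 0.136 without HCC827/GS replicates 2 and 3, while the log2 fold change stayed between 0.57 and 0.88. It was also lost with no filter on low values (adjusted p = 0.0765), quantile normalization (0.0559), no variance trend (0.0516) and a library-size covariate (0.181). Of the 50-base stretches of annotated transcripts, 2.72% for HLA-B and 5.38% for HLA-C also occurred in another gene. These include stretches that the 2 genes of this entry share with each other, 2.48% of HLA-B and 2.87% of HLA-C.

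HLA-E, at chr6:30489467-30494205 on the plus strand, encodes a nonclassical heavy chain that presents leader peptides of other class I chains and is read by NKG2A on natural killer cells. Its level was 9.56, 8.75 and 10.4 FPKM in HCC827/GR and 7.28 and 7.18 FPKM in HCC827/GS. The groups did not overlap, and means were 9.58 ± 0.840 (SD, n = 3) and 7.23 ± 0.0711 (SD, n = 2) FPKM. The log2 fold change of 0.36 (SE 0.10, interval 0.09 to 0.63) did not pass the test (limma, adjusted p = 0.107).

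B2M, at chr15:44711487-44718877 on the plus strand, encodes β2-microglobulin, the light chain of every class I molecule, and is the only member outside chromosome 6. Its promoter (chr15:44711267-44711566, plus strand) is shown for its overlapping interferon-response matches beside a κB match, all in capitals.
B2M: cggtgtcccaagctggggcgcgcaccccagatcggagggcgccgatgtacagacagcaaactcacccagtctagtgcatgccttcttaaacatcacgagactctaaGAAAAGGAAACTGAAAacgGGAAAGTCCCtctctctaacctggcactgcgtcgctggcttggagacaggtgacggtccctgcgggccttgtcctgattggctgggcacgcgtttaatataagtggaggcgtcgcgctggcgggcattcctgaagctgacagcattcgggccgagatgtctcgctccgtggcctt
B2M was the most abundant member per length, with 27.9, 28.4 and 35.5 FPKM in HCC827/GR and 29.2 and 23.1 FPKM in HCC827/GS. The groups overlapped, and means were 30.6 ± 4.28 (SD, n = 3) and 26.1 ± 4.32 (SD, n = 2) FPKM. The log2 fold change was 0.22 (interval -0.21 to 0.66, limma adjusted p = 0.460), and it ranged from 0.059 without HCC827/GS replicate 3 to 0.39 without HCC827/GS replicate 2. Without HCC827/GR replicate 3 it was 0.11.

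The heavy chains were then set against the light chain within each library, which does not depend on the scaling between libraries. The log2 ratio of the summed HLA-B, HLA-C and HLA-E level to B2M was 0.33, 0.14 and 0.08 in HCC827/GR and -0.30 and -0.19 in HCC827/GS. Heavy chain RNA thus exceeded B2M in every resistant library and was below it in both parental ones. The difference of 0.42 gave the smallest p that this design allows (exact two-sided permutation test, p = 0.1). Further ratios were chosen after values were seen and are given without a test. The HLA-B and HLA-C entry over B2M was -0.13, -0.34 and -0.39 in HCC827/GR and -0.82 in each HCC827/GS library. The groups were apart in this ratio, and HLA-E over B2M differed by 0.17 with overlapping groups.

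**Figure D2:**
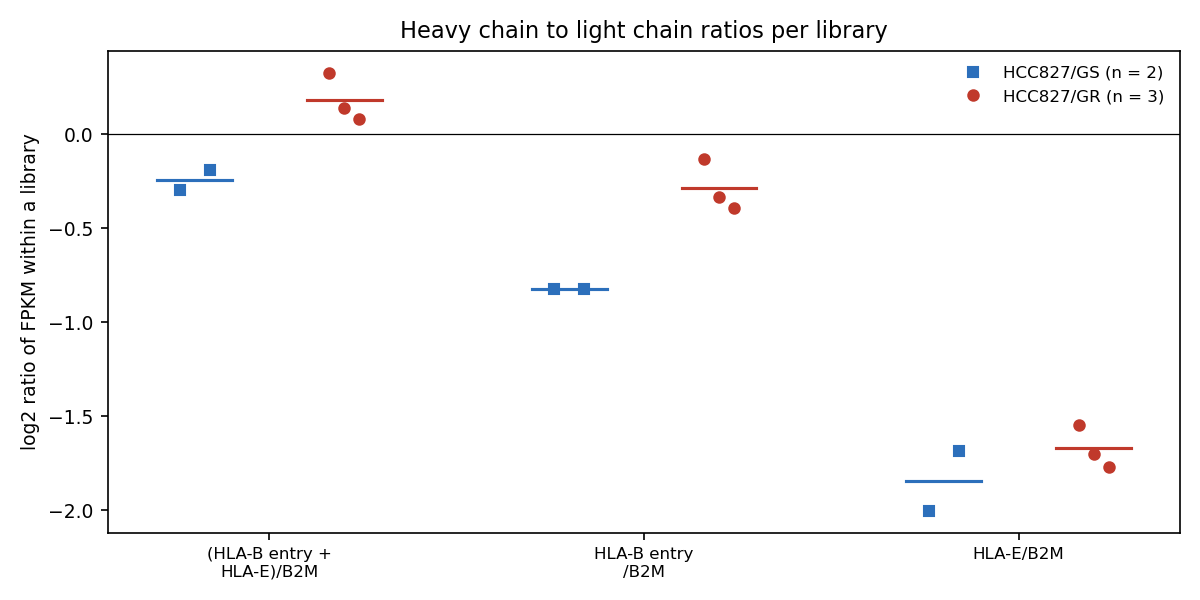
Log2 ratios of FPKM within a library for class I chains, with squares for HCC827/GS, circles for HCC827/GR and lines for group means. Ratios with the HLA-B and HLA-C entry separate the groups, whereas HLA-E over B2M overlaps.

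TAP1 and TAP2 form the transporter that moves peptides into the endoplasmic reticulum, and both lie on the minus strand of chromosome 6, TAP1 at chr6:32845209-32853978 and TAP2 at chr6:32821833-32838780. The TAP1 promoter (chr6:32853655-32853954, minus strand) is printed because it holds overlapping interferon-response matches on the reverse strand and separate κB matches, in capitals, and because it abuts that of PSMB9.
TAP1: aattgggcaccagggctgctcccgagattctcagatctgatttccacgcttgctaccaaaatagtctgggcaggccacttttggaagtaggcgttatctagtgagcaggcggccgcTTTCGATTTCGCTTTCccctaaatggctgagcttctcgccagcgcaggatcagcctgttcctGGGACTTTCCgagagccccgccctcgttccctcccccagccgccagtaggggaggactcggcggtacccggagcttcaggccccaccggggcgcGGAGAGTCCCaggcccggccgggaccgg
The starts of TAP1 and PSMB9 lay 488 bases apart and pointed away from each other, and their windows overlapped by 13 bases.

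TAP1 measured 4.73, 7.50 and 7.74 FPKM in HCC827/GR and 5.42 and 4.98 FPKM in HCC827/GS. HCC827/GR replicate 1 was below both parental libraries and the other resistant libraries were above them. The log2 fold change was 0.28 (SE 0.22, interval -0.29 to 0.85, limma adjusted p = 0.477), and it was 0.17 without HCC827/GR replicate 3 and 0.48 without HCC827/GR replicate 1. The annotated TAP1 span (8770 bases) lies wholly within the GENCODE span of PSMB9 on the opposite strand. That span begins at 32844136, before the RefSeq start of PSMB9 at 32854192 used for the promoter. These are overlaps of gene spans, and exons were not compared. The sources used here do not say that counting used strand, and whether reads of one gene went to the other was not tested.

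TAP2 measured 5.27, 5.32 and 6.56 FPKM in HCC827/GR and 4.77 and 6.38 FPKM in HCC827/GS. The groups overlapped over nearly their whole range, and the log2 fold change was 0.04 (interval -0.38 to 0.45, limma adjusted p = 0.914). The TAP2 entry held 5 TAP2 transcripts with 2 of HLA-DOB and 1 of AL669918.1, so the level of TAP2 alone cannot be read from it. Of the 50-base stretches of TAP2, 31.3% also occurred in AL669918.1, which is in the same entry, and 0.48% in TAP1.

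TAPBP encodes tapasin, which bridges TAP and the heavy chain during peptide loading, and lies at chr6:33299694-33314387 on the minus strand. Its 9 transcripts were joined with 11 of RGL2, 3 of ZBTB22 and 5 others. That entry measured 7.37, 8.21 and 5.66 FPKM in HCC827/GR and 8.46 and 6.27 FPKM in HCC827/GS. The groups overlapped (log2 fold change -0.05, interval -0.56 to 0.46, limma adjusted p = 0.901). The level of TAPBP alone cannot be read from this entry. It was not counted among the 7 because it bears another symbol, although the counted entries of HLA-B, TAP2 and PSMB9 also joined genes.

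PSMB8 and PSMB9 encode catalytic subunits of the immunoproteasome, which replace PSMB5 and PSMB6 of the constitutive particle and shift cleavage toward peptides that suit class I grooves. PSMB8 lies at chr6:32840717-32844703 on the minus strand and PSMB9 at chr6:32844136-32859585 on the plus strand, between and across the TAP genes. PSMB8 measured 15.0, 13.8 and 19.7 FPKM in HCC827/GR and 13.0 and 14.8 FPKM in HCC827/GS. The groups overlapped, with HCC827/GR replicate 3 highest, and the log2 fold change was 0.19 (interval -0.27 to 0.66, limma adjusted p = 0.546). It was 0.052 without that library, 0.11 without HCC827/GS replicate 2 and 0.30 without HCC827/GR replicate 2.

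PSMB9 was the least abundant member, with 4.51, 2.24 and 3.22 FPKM in HCC827/GR and 2.43 FPKM in each HCC827/GS library. HCC827/GR replicate 2 was below the parental level and the other resistant libraries above it, and the log2 fold change was 0.30 (interval -0.33 to 0.93, limma adjusted p = 0.489). It was 0.11 without HCC827/GR replicate 1 and 0.49 without HCC827/GR replicate 2. Its entry held 3 PSMB9 transcripts and 6 of PSMB8-AS1, the antisense gene of PSMB8, so the levels of these RNAs cannot be told apart.

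The immunoproteasome subunits stayed below their constitutive counterparts in every library. PSMB8 was at 22.3% to 46.1% of the FPKM of PSMB5, PSMB9 at 5.77% to 9.82% of PSMB6, and PSMB10, the remaining inducible catalytic subunit, at 2.33% to 4.04% of PSMB7. The PSMB10 entry joined 3 annotated genes, among them CTRL, so its level is not that of PSMB10 alone. On the scale log2 of the ratio of (FPKM + 1), the groups differed by 0.13 for PSMB8 to PSMB5 (exact permutation p = 1.0), by -0.10 for PSMB9 to PSMB6 (p = 0.7) and by -0.51 for PSMB10 to PSMB7 (p = 0.2). Adjusted over these 3 ratios the p-values were 1.0, 1.0 and 0.6. With all entries of a symbol summed, the PSMB10 to PSMB7 difference was -0.89 (exact permutation p = 0.1, not adjusted). The sign of the first turned without HCC827/GR replicate 3 (-0.19) and that of the second without HCC827/GR replicate 2 (0.010).

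Ordered by level per length over the 5 libraries, B2M came first, followed by the HLA-B and HLA-C entry, PSMB8, HLA-E, TAP1, TAP2 and PSMB9. B2M was above the HLA-B and HLA-C entry in each library. The ranges of TAP1 and TAP2 overlapped almost wholly, those of the HLA-B and HLA-C entry and PSMB8 overlapped in HCC827/GS, and HLA-E overlapped TAP1 over all libraries. HCC827/GR replicate 3 was the highest of the 5 libraries for 6 of 7 members, and replicate 1 for PSMB9. Summed FPKM of the 7 entries was 88.5 to 110.3 in HCC827/GR and 71.8 to 78.5 in HCC827/GS. Without HCC827/GR replicate 3, which also had the highest relative depth (1.27), the median log2 fold change of the members was 0.17.

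Sequence motifs were compared over the RefSeq promoter windows of 8 members (HLA-E had none in the table used here) and over 35116 windows in all, on both strands. For the 2 members with 2 windows, the first listed was used, while the 35116 windows included alternatives. The interferon-response motif, GAAA and GAAA with any 2 bases between them, was in 4 of 8 (B2M, TAP1, TAP2 and TAPBP) and in 3.57% of all windows. The κB motif was GGGRNNYYCC, where R is A or G, Y is C or T and N is any base. It was in 5 of 8 (HLA-B, HLA-C, B2M, TAP1 and TAPBP) and in 11.3% of all. The STAT motif TTCNNNGAA was in 0 of 8 and 7.66% of all. CCAAT was found in 5 of 8 and 34.6% of all, and TGACG, part of the X box of class I promoters, in 6 of 8 and 24.6% of all. These are letter matches in fixed windows and were not tested for binding. Variants of the patterns were not searched, so HLA-B and HLA-C without a match may still hold an interferon-response element.

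The other genes of the pathway were listed by role. Of the 51 genes reported here, 47 had their own entry, 42 passed the filter on low values and 3 rose (limma, adjusted p below 0.05), and their median log2 fold change was 0.16. This count lies near the 5.26% of all tested entries that were called higher. The genes that rose were ULBP2, ERAP1 and LNPEP. MICA, PSME3, NFYA and IFNAR2 were joined to other genes and not counted.

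Among peptide loading and trimming genes, 2 of 7 rose and none fell, where 5.26% of all tested entries were called higher and 5.71% lower. ERAP1 trims peptides inside the endoplasmic reticulum to the length that class I grooves hold, and measured 15.0, 14.2 and 17.0 FPKM in HCC827/GR against 8.73 and 9.03 FPKM in HCC827/GS. Its log2 fold change was 0.73 (SE 0.11, limma adjusted p = 0.0240), with all resistant libraries above the parental ones. LNPEP, an aminopeptidase of the same family that acts in endosomes and is known from cross-presentation, measured 8.14, 9.16 and 6.62 FPKM against 2.63 and 3.25 FPKM, a log2 fold change of 1.18 (SE 0.16, adjusted p = 0.0195). The chaperones and the other genes of this list (CALR, CANX, PDIA3, ERAP2 and TAPBPL) did not pass the test.

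Of the stress ligands, which have a class I fold and are bound by NKG2D on natural killer cells, 1 of 4 tested rose, beside the same 5.26% of all entries. ULBP2 measured 6.92, 6.66 and 5.79 FPKM in HCC827/GR against 3.16 and 3.04 FPKM in HCC827/GS, and its log2 fold change was 0.86 (SE 0.11, limma adjusted p = 0.0151). None of the 4 tested heavy chain and class I-like genes reported here passed, the largest log2 fold change being 0.35 for FCGRT, the neonatal Fc receptor (adjusted p = 0.165). None of the 7 proteasome genes passed either, with 0.40 for PSMB6 (adjusted p = 0.124).

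Among the 12 tested regulators reported here, 7 had a log2 fold change above 0 and 5 below, and none passed the test. RELA, a subunit of NF-κB, was farthest from 0 (0.32, limma adjusted p = 0.129). EZH2 lay nearly as far in the other direction (-0.32, adjusted p = 0.154). NLRC5, the class I transactivator, and IRF1 were looked up after the values were known, and had -0.21 (adjusted p = 0.525) and -0.13 (adjusted p = 0.673). None of the 8 interferon receptor and signalling genes passed, the largest log2 fold change being 0.75 for JAK1 (adjusted p = 0.170). The call of ERAP1 ended when any library was left out (adjusted p = 0.0515 to 0.106). Those of ULBP2 and LNPEP remained only without HCC827/GR replicate 3, with adjusted p of up to 0.0818 and 0.105 without the others.

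**Figure D3:**
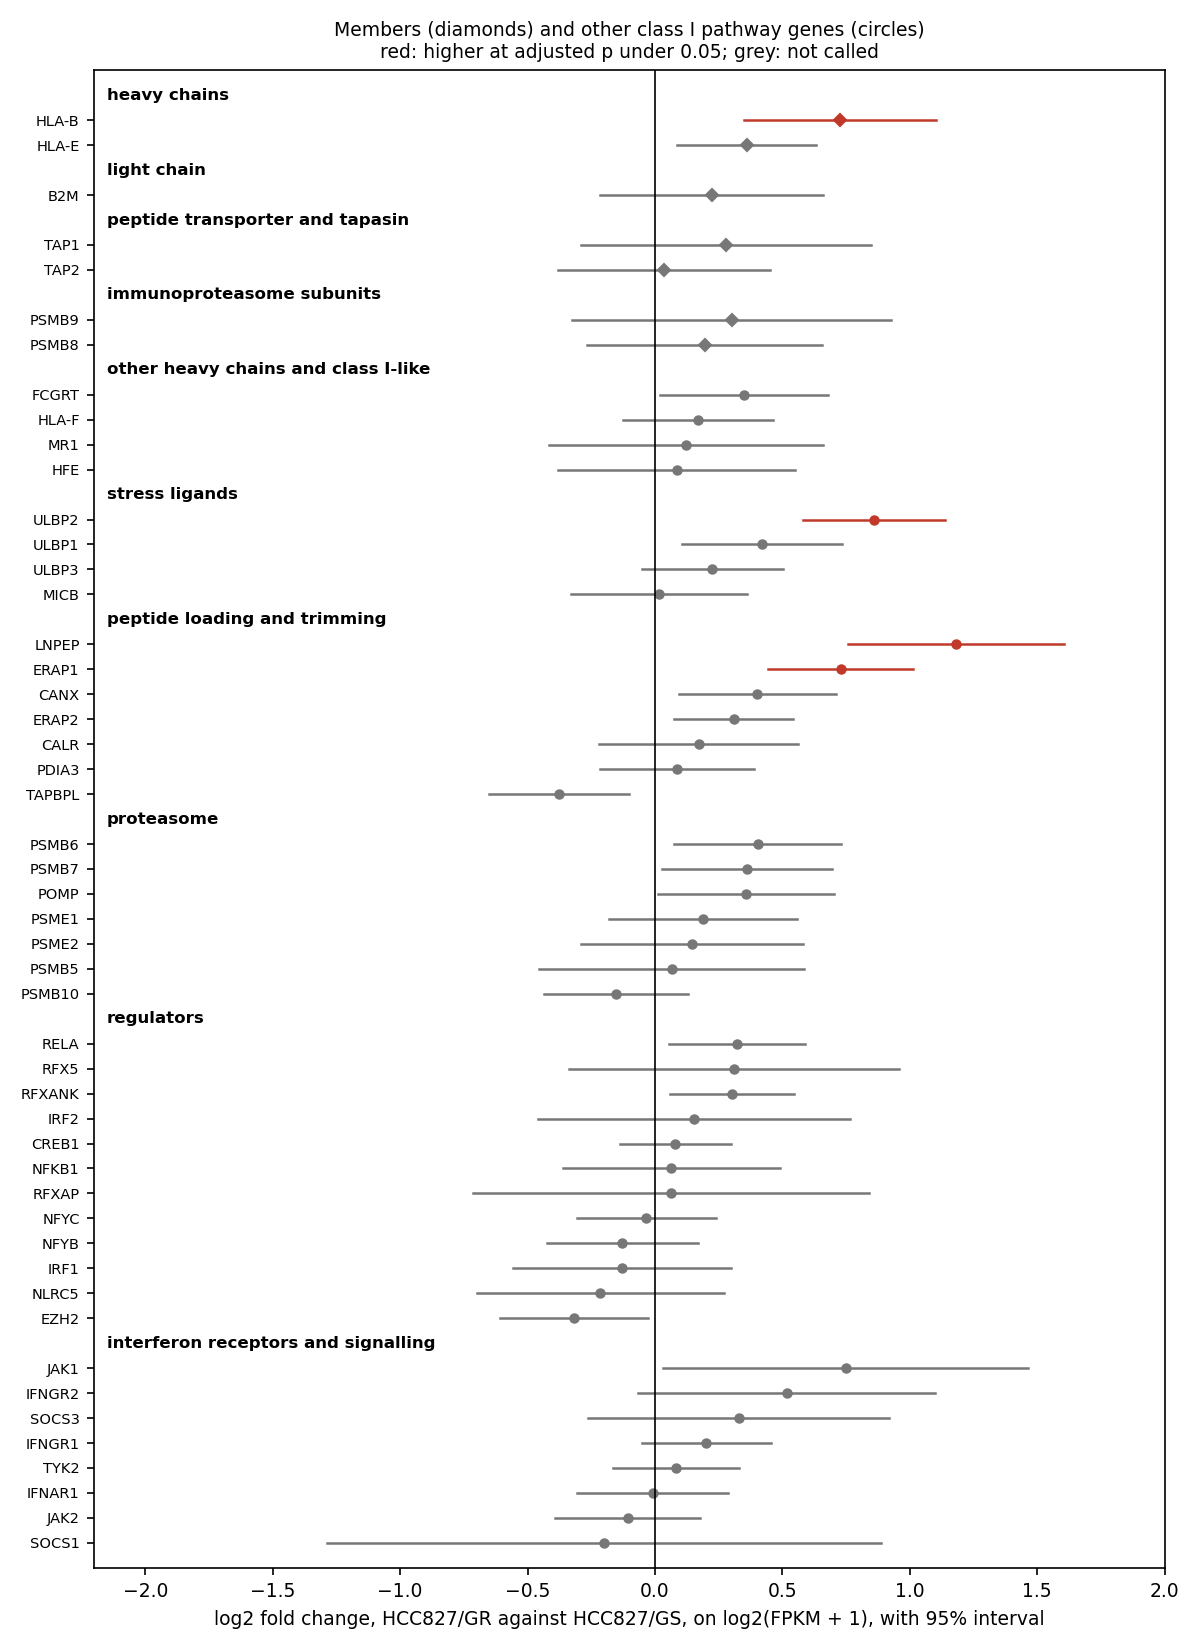
Log2 fold changes of the members (diamonds) and the other tested pathway genes (circles) with 95% intervals, by role, where red marks an adjusted p below 0.05 and grey marks the rest. HLA-B, ULBP2, LNPEP and ERAP1 lie to the right in red.

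Interferon-stimulated genes were listed because interferons act on most members. Of 26 tested, 0 rose and 5 fell, where 5.71% of all entries were called lower, and the median log2 fold change was -0.21 beside 0.28 for the members. IFITM1, which restricts virus entry, measured 0.225, 0.191 and 0.392 FPKM in HCC827/GR against 2.40 and 1.51 FPKM in HCC827/GS (log2 fold change -1.21, limma adjusted p = 0.0254, in an entry that joined IFITM2). OAS3, which makes the oligoadenylates that activate RNase L, measured 7.15, 6.19 and 9.09 FPKM against 18.4 and 14.1 FPKM (-1.03, adjusted p = 0.0408). The others were PARP9 (-0.82), SAMD9 (-0.78) and IFITM3 (-0.53). The lists were not tested against each other, and 0 to 5 of these genes were called lower when a library was left out. Of 12 MHC class II genes, 9 had their own entry, 7 of these were below the filter, and neither HLA-DRB1 (-0.07) nor the HLA-DMA entry, which joined HLA-DMB (0.34), passed the test.

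Of the 9 members, 8 lie in or near the MHC region of chromosome 6, and the neighbours between HLA-F (from 29722775) and KIFC1 (to 33409924) were listed to show how this stretch behaved. Of 69 other tested protein-coding genes reported there, 4 rose and 3 fell, counts near the background of 5.26% and 5.71% over all tested entries, and their median log2 fold change was 0.04. The largest called increases were those of NEU1, a lysosomal sialidase (0.93, limma adjusted p = 0.0463), and MRPS18B, a mitochondrial ribosomal protein (0.90, adjusted p = 0.0178). The largest called decreases were those of SFTA2, a surfactant-associated gene (-2.45, adjusted p = 0.00469), and DDR1, a collagen receptor kinase (-1.01, adjusted p = 0.0382). Genes called higher and lower were interspersed with genes that were not called.

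**Figure D4:**
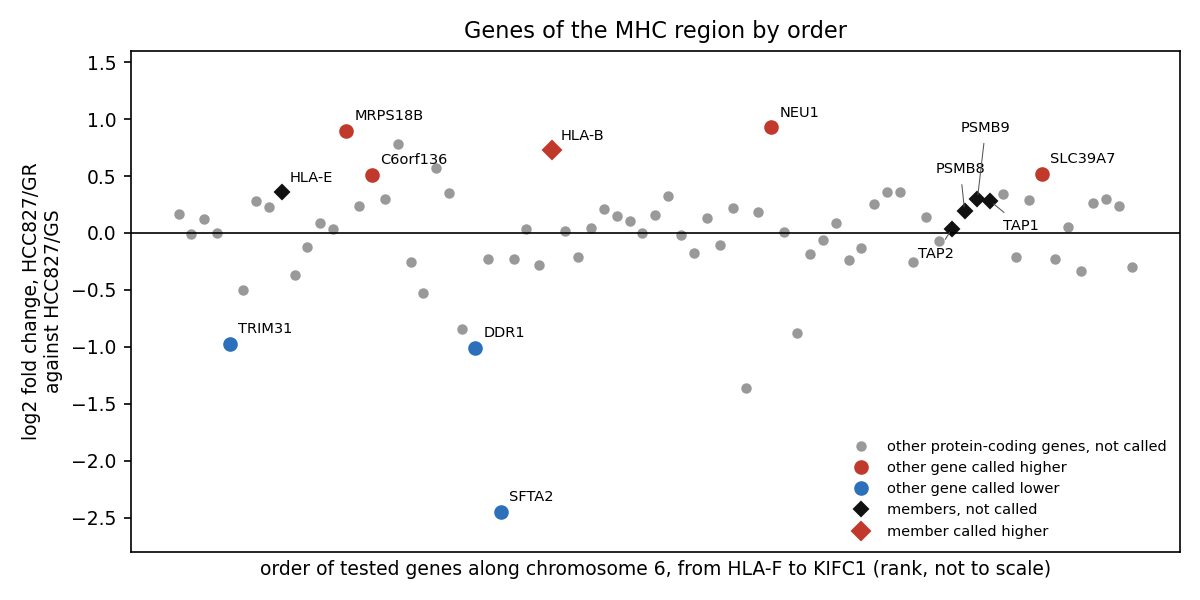
Log2 fold changes of tested genes of the MHC region in their order along chromosome 6 (rank, not to scale), with diamonds for members. The HLA-B entry is at 0.73, and TAP2, PSMB8, PSMB9 and TAP1 sit together between 0.04 and 0.30.

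The entries with a profile most like the mean profile of the 7 members, among 5018 protein-coding entries of at least 5 FPKM, were TRAPPC2L, PSMC6, RABEPK, PHB2 and CKAP4. Their centred log2 profiles over the 5 libraries differed from that mean by a root-mean-square of 0.0194 to 0.0361, against a median of 0.253 over the candidates. They were chosen for this likeness, and none passed the test (limma adjusted p = 0.152 to 0.224). Among the members themselves, HLA-E was closest to the mean profile (0.0397) and PSMB9 farthest from it (0.234).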

How the data were processed

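FPKM per gene or assembled locus were estimated by the authors with StringTie and deposited as a single table. The submitters' processing notes also name cutadapt, FastQC, Bowtie2, TopHat2 and hg18. Of 135299 Ensembl transcript identifiers in the table, 135164 were found in GENCODE 29 (GRCh38), which gave the coordinates used here, and the table itself gives none. The labels describe a small RNA kit with single-end reads and the study's methods an rRNA-depleted, paired-end library. Counts and depth were not given, so precision rests on the libraries alone. In all, 1491 entries joined several annotated genes. The FPKM column of 1 further library had no sample in the labels and was not used, nor were the authors' fold changes and p-values.

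For each symbol the entry with the highest mean was taken. The 16189 entries whose mean reached 0.5 FPKM were modelled as log2(FPKM + 1) in limma 3.58.1 (R 4.3.3), using moderated variances with a trend and no replicate block, with Benjamini-Hochberg adjustment over them all. The design was checked on simulated data of 16189 genes for HCC827/GR against HCC827/GS, of which 200 were changed. Of those changed by 0.8 on the log2 scale 69 of 100 were called, and of those changed by 2, 84 of 100, with 11 false calls. The simulated spread was normal and followed the mean level alone. Differing spread between genes of like level and outlying libraries were not represented. Fewer genes were changed than were called in the data, and simulated FPKM below 0 were set to 0, which limits decreases of low genes. These rates may therefore not hold for the data. Single values were tested with exact two-sided permutation (smallest p 0.1). Alternatives were a pseudocount of 0.1, other filters, scalings and covariates, a replicate block and leaving out each library, with a rescaling of protein-coding entries added after seeing the data. Members and lists were chosen with earlier results of these data known. Some genes of the fixed lists are not reported here and are left out of the counts. Genes were named by rule, as all members, the called genes of each role list (with the gene of largest change where fewer than 2 were called), the 2 largest calls per direction in the other lists, and the 5 closest profiles. Python 3.11.15 was used for the rest.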

Additional observations from a re-analysis of the deposited data

How the results depend on the processing

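The entry of HLA-B and HLA-C had a positive log2 fold change in all 15 alternatives and passed the test in 5 of them (adjusted p 0.0417 to 0.220). It was not called, leaving 0 members called, with no filter on low values (0.73), quantile normalization (0.69), no variance trend (0.73), a library-size covariate (0.70), a replicate block (0.71) and without each library (0.57 to 0.88, with 0 members called in each), and the cause was not tested. Over all entries, the calls were 851 higher and 924 lower, and 504 higher with no filter. They were 68 higher and 77 lower with the library-size covariate, and 202 to 485 higher and 287 to 477 lower without single libraries.

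With the library-size covariate the median log2 fold change of the members was 0.072 in place of 0.28, that of B2M was 0.072 and of PSMB8 0.015, and the sign turned for TAP1 (-0.0074), TAP2 (-0.10) and the entry joining RGL2, TAPBP and ZBTB22 (0.12). Without single libraries TAP2 ranged from -0.14 to 0.21, that joined entry from -0.24 to 0.14, the log2 ratio of PSMB8 to PSMB5 from -0.19 to 0.31 and that of PSMB9 to PSMB6 from -0.25 to 0.010. Other pathway genes called higher then numbered 0 to 2, interferon-stimulated genes called lower 0 to 5 and higher 0 to 1 (UBE2L6, without HCC827/GS replicate 2), and genes of the MHC region 0 to 1 higher and 1 to 2 lower. Under quantile normalization 2 genes of the MHC region were called higher.

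The groups shared replicate numbers 2 and 3, and deviations of same-numbered libraries correlated at 0.0328 and 0.0147 over entries, so the numbers were not taken to pair them. The 2 HCC827/GS libraries deviate from their mean by opposite amounts. HCC827/GR replicate 2 with HCC827/GS replicate 3 therefore gave -0.0328, and replicate 3 with replicate 2 gave -0.0147. Same-numbered and cross-numbered values are thus not separate evidence on pairing. With the replicate block 0 entries were called higher and 0 lower, so 0 members, 0 pathway genes, 0 interferon-stimulated genes and 0 genes of the MHC region were called. HCC827/GR replicate 1 has no same-numbered parental library, so the block gave the same log2 fold changes as leaving it out (0.71 for HLA-B). The block also left very little freedom to estimate spread, so the lack of calls says little about any gene. Leaving out an HCC827/GS library leaves a lone sample, which is assumed to vary like the other group. The median log2 fold change over the 16189 entries was 0.0014, and it was 0.011 with median-ratio scaling and 0.016 with quantile normalization. With protein-coding entries rescaled it was 0.025, over a smaller set of 10771 entries.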
